A study of Homo sapiens with 9 samples.

Results

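The genes described here are 43 genes of interferon signalling, interferon-stimulated effectors and class I antigen presentation, out of 60683 genes counted in the series. They were chosen by symbol, and each symbol matched 1 Ensembl identifier; gene positions given here are those of GENCODE 29 (GRCh38), over all transcripts of a gene. RNA was sequenced from 3 groups of HEK293T, an established human embryonic kidney cell line, with 3 libraries in each. The parental cells carry no integrand. Clone 15 and clone 37 both carry, through piggyBac transposition, ATG-(CAG)60-Myc-NLuc, a NanoLuc reporter behind 60 CAG units, and ATG-(CAG)0-Myc-FLuc, a firefly luciferase reporter with 0 units. The 2 integrands are expressed at a low level in clone 15 and at a high level in clone 37, per the labels. Each level was represented by 1 clone that went through single-cell sorting, so the level of the integrands and any other property of a clone cannot be told apart. The labels name no interferon treatment.

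Cells sense interferon with receptors at the surface. Type I interferon binds IFNAR1 and IFNAR2, which carry the kinases TYK2 and JAK1, and type II interferon binds IFNGR1 and IFNGR2. The kinases phosphorylate STAT proteins. A complex that holds STAT2 and IRF9 binds the interferon-stimulated response element (ISRE) in front of antiviral genes, whereas the type II response acts through the gamma-activated site (GAS). Class I molecules (HLA-B, HLA-C and HLA-E with B2M) show peptides at the cell surface after TAP1, TAP2 and TAPBP have loaded them, and NLRC5 is a transcriptional activator of these genes.

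To show the sites that this pathway reads, promoter sequence of 6 members is printed. They were picked because they share a site and differed in their calls: IFIT5, OAS3 and IFITM3 rose in clone 37, IFIT1 fell there, ISG15 fell in clone 15, and IFI6 passed the test nowhere. The windows are stretches of 70 bases upstream of the RefSeq transcript start (GRCh38.p14), placed around the matches and written 5′ to 3′ on the gene's strand, with capitals for each match to the ISRE core GAAANNGAAA or its reverse complement TTTCNNTTTC. They lie at chr10:89392483-89392552 (IFIT1, plus strand), chr10:89414498-89414567 (IFIT5, plus), chr12:112938301-112938370 (OAS3, plus), chr11:320865-320934 (IFITM3, minus), chr1:1013357-1013426 (ISG15, plus) and chr1:27672289-27672358 (IFI6, minus).
IFIT1: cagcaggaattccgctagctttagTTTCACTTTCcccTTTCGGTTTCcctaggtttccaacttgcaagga
IFIT5: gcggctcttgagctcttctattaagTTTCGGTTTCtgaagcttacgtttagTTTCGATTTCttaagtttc
OAS3: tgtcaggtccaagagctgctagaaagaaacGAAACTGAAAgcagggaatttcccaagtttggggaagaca
IFITM3: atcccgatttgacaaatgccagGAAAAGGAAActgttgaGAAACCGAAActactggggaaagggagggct
ISG15: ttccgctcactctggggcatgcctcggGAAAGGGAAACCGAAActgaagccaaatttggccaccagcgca
IFI6: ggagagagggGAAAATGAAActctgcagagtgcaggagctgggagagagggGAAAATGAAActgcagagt
The first match begins 116 bases before the start in IFIT1, 45 in IFIT5, 143 in OAS3, 52 in IFITM3, 113 in ISG15 and 156 in IFI6. In ISG15 the 2 matches overlap by 4 bases, and in the other windows with 2 matches they stand apart.

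The RefSeq promoter table, which spans 250 bases before to 50 after each start, had an entry for 31 of the 43 genes. It had none for IRF2, IRF3, IRF7, IFNAR2, IFIT2, IFITM2, MX2, OAS2, OASL, USP18, HLA-E and NLRC5. The ISRE core, searched on both strands, was in 17 of the 31, beside 3.57% of all 35116 promoters in the table. These 17 were IFIT1, IFIT3, IFIT5, IFI6, IFI27, IFITM1, IFITM3, ISG15, ISG20, MX1, OAS3, RSAD2, BST2, B2M, TAP1, TAP2 and TAPBP. The GAS letters TTCNNNGAA, which read the same on both strands, were in 9 members (IRF1, IRF9, IFI27, IFI35, IFITM1, MX1, OAS1, BST2 and TAP1), beside 7.66% of all promoters. In both searches a member counted if any of its starts matched, whereas the percentages are of single promoter entries. A match describes the letters in this window and says nothing of binding in these cells. Of the 17 genes with the core, 13 were tested in clone 37 against parental, with 5 called higher and 1 lower, where 26.7% of all genes tested were called higher and 27.3% lower. Of the 14 without it, 13 were tested, with 4 higher and 5 lower. In clone 15 the numbers were 3 higher and 1 lower of 13 with the core and 7 higher and 2 lower of 13 without it, beside 25.1% and 26.2% of all genes. Whether genes with and without the core differ was not tested.

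Gene counts summed to between 10334090 and 38093340 per library, with the 3 clone 15 libraries deepest. Clone 15 was also read at 100 bp and the other groups at 75 bp, so effects of read length cannot be told apart from those of this clone. Of 10 markers of HEK293 cells, all 10 were tested in each comparison, at 6.76 to 2810 CPM, the usual unit of counts scaled to the total gene count of a library. Of 10 leukocyte markers, listed because leukocytes are rich in these genes, CD3E and MS4A1 had 0 counts in all 9 libraries and PTPRC had at most 1 count in a library. Their summed level was 1.91 to 2.09 CPM in parental cells, 1.87 to 2.10 in clone 15 and 2.52 to 3.01 in clone 37. CD14 was at 0 to 0.0765 CPM in parental cells, 0.447 to 0.893 in clone 15 and 0.730 to 1.30 in clone 37. No interferon gene was expressed at a level that could be tested: of 22 listed, 18 had 0 counts in all 9 libraries, which allows up to 3 counts a library (0.0788 to 0.290 CPM, counting error only). The other 4 had 33 counts together, 26 of them from IFNE, with at most 5 in a library.

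Levels of the 43 genes spanned several orders of magnitude. Per kilobase of annotated exon, HLA-C was the highest member in each group, at a mean of 48.1 CPM per kb in parental cells, 58.5 in clone 15 and 47.4 in clone 37. HLA-B followed in parental at 27.5 CPM per kb and JAK1 at 24.6, while the median of the members that were tested was 5.24 in parental cells, 6.15 in clone 15 and 6.64 in clone 37. The counts of 7 genes were too low to test in any comparison: MX1, MX2, OAS1, OAS2, OASL, RSAD2 and BST2. These encode antiviral effectors: the MX GTPases, the oligoadenylate synthetase family, viperin (RSAD2) and tetherin (BST2). Per kilobase BST2 was not among the lowest members, at 1.02 CPM per kb in parental cells, beside 0.66 for OAS3, which was tested.

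**Figure D1:**
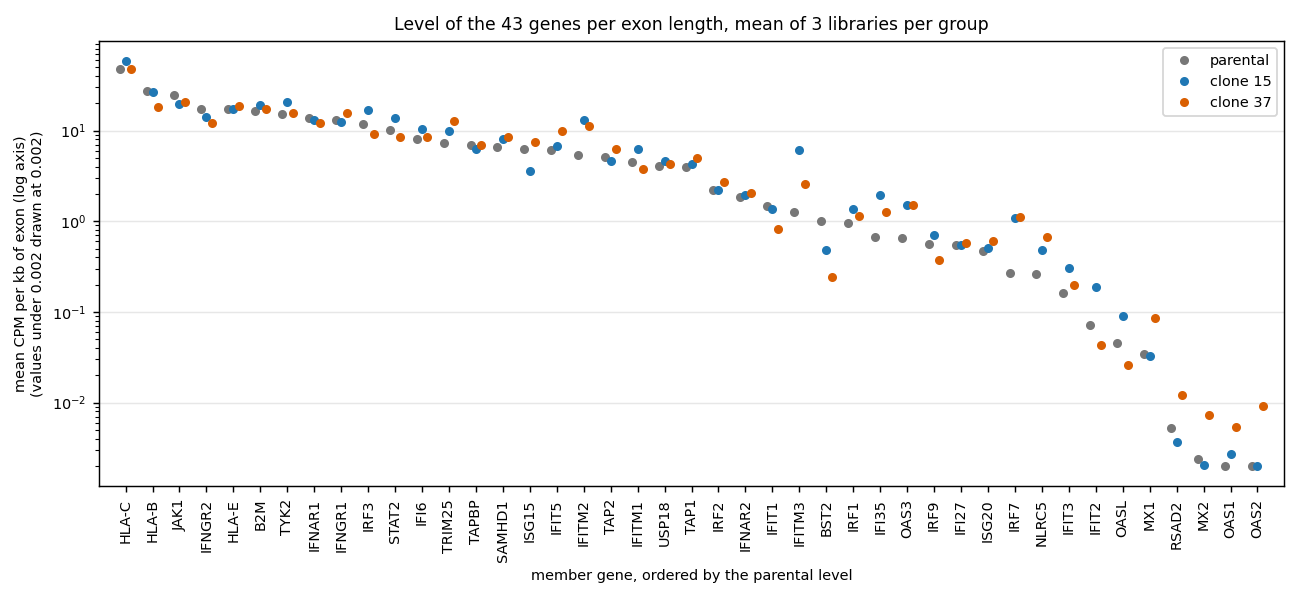
Mean level of each of the 43 genes per kilobase of exon (log axis, CPM per kb) in parental, clone 15 and clone 37, in order of the parental level. Points are means of 3 libraries, and means under 0.002 are drawn at 0.002. HLA-C is highest in every group, and OAS1, OAS2, MX2 and RSAD2 lie at the bottom.

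The raw counts of these 7 genes were as follows. OAS2 had 0 counts in all 6 parental and clone 15 libraries and 1, 0 and 1 in clone 37. OAS1 had 0 in each parental library and a single count over the libraries of either clone, and MX2 and RSAD2 had at most 2 counts in a library. MX1 had 4, 5 and 2 counts in parental cells, 14, 8 and 3 in clone 15 and 11, 6 and 8 in clone 37. On the CPM scale that is 0.153 to 0.370 in parental cells, 0.161 to 0.368 in clone 15 and 0.581 to 1.00 in clone 37, and clone 37 lay above the other groups, but MX1 was under the count minimum and its difference was not tested. OASL had 2, 3 and 1 counts in parental cells, 9, 7 and 8 in clone 15 and 0, 2 and 1 in clone 37. BST2 had 10, 26 and 8 counts in parental cells, 20, 15 and 9 in clone 15 and 3, 3 and 3 in clone 37. Counts from both strands together did not bring these 7 genes up: the highest unstranded count in a library was 26, for BST2 in parental replicate 2. IFIT3 could be tested between the clones only, and IFIT2 not in clone 37 against parental.

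In clone 37 against parental, 19 of the 34 members tested were called by edgeR's quasi-likelihood test at an adjusted p under 0.05 (Benjamini-Hochberg over all genes tested), 12 higher and 7 lower. That is 55.9% of them, near the 54% called among all 16501 genes tested (26.7% higher and 27.3% lower). The median log2 fold change of the members was 0.12, against 0.02 over all genes. A called change of at least 1.5-fold was fitted upward for 8 of the 34 members (beside 9.44% of all genes) and downward for 2 of the 34 (beside 12.3%). In clone 15 against parental, 18 of 35 were called, 15 higher and 3 lower, or 51.4%, which is also the share among all 17703 genes (25.1% higher, 26.2% lower). The median was 0.19, against 0.02 over all genes. At least 1.5-fold, 7 of the 35 members were called higher (beside 11.6% of all genes) and 1 of the 35 lower (beside 12.4%). Between the clones 20 of 36 were called, 7 higher and 13 lower in clone 37, or 55.6%, against 57.7% of all 17712 genes (28.7% higher, 29% lower), with a median of -0.11 against -0.00. At 1.5-fold or more, 1 of the 36 was higher (beside 12.1% of all genes) and 8 of the 36 were lower (beside 14%). The labels do not say that replicates were separate cultures, so these p values measure the spread between libraries, which may be technical. In bulk libraries a lower level in every cell and fewer cells that hold the transcript cannot be told apart.

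Side by side, 8 members were called higher in both clones: IRF7, IFI35, IFITM2, IFITM3, OAS3, TRIM25, SAMHD1 and NLRC5. These are 23.5% of the 34 members tested in both comparisons, where 11.8% of the 16360 genes tested in both were called so. JAK1 and IFNGR2 were called lower in both clones (2 members, 5.88%, beside 14.6% of all genes), and IRF3 and STAT2 were called in opposite directions (5.88%, beside 6.55%). Both comparisons share the parental libraries, so the counts are not independent of each other. Of the 34 members tested in all 3 comparisons, 8 were called in none (23.5%, beside 20.3% of the 16258 genes so tested): IRF2, IFNAR2, IFI6, IFI27, ISG20, USP18, HLA-E and TAPBP.

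**Figure D2:**
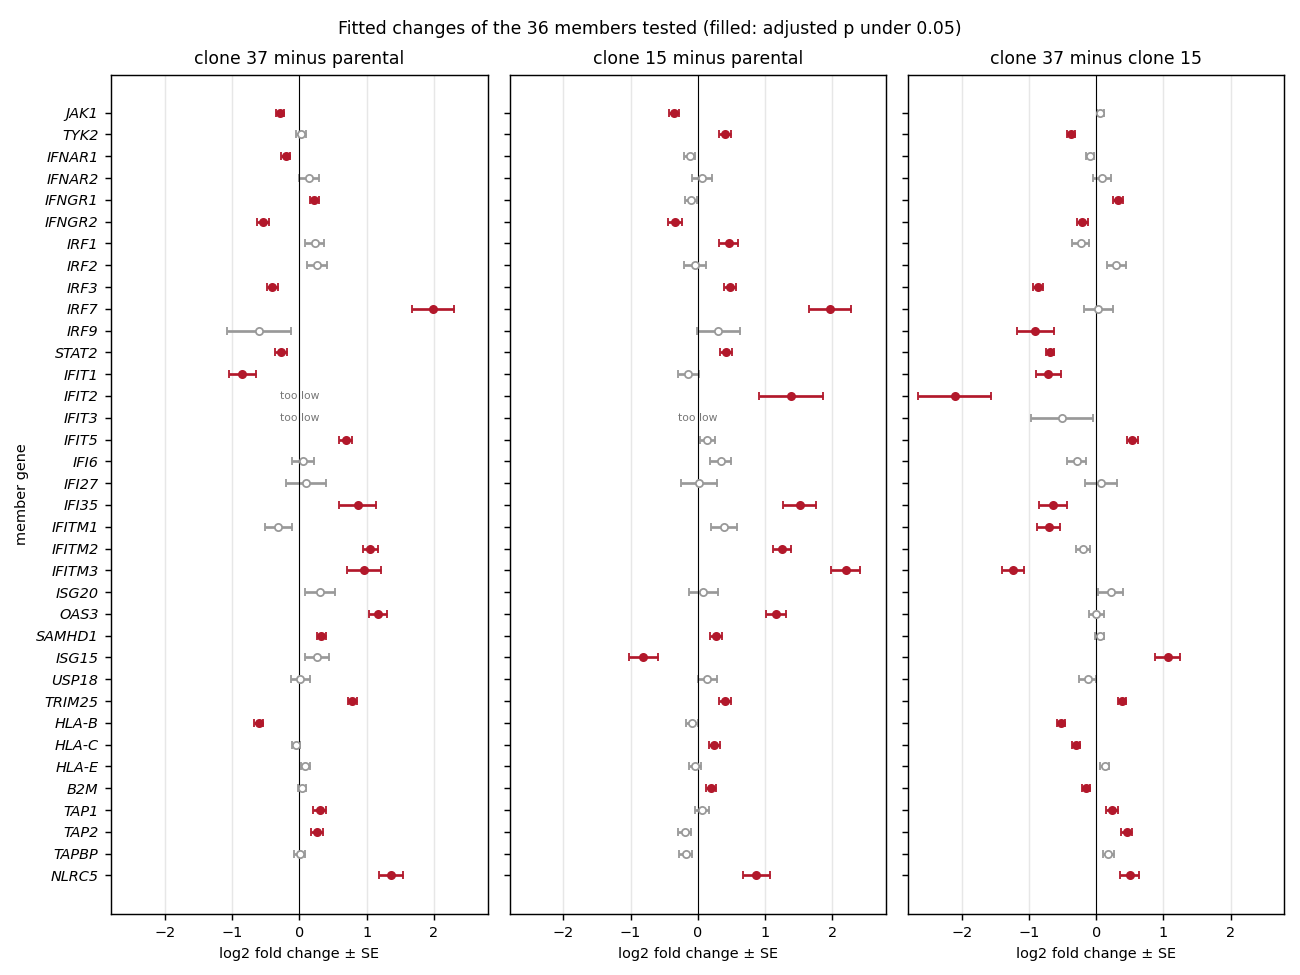
Fitted log2 fold change (± SE) of the 36 members tested in at least 1 comparison, for clone 37 against parental, clone 15 against parental and clone 37 against clone 15. Filled points passed an adjusted p of 0.05, and genes too low for a panel are marked. IRF7, IFITM2, IFITM3, IFI35, OAS3 and NLRC5 lie to the right of 0 in both panels against parental, at 0.87 to 2.20.

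Of the 6 receptor and kinase genes, 1 was called higher and 3 lower in clone 37 (16.7% and 50%, beside 26.7% and 27.3% of all genes), and 1 higher and 2 lower in clone 15 (16.7% and 33.3%, beside 25.1% and 26.2%). None of these calls reached 1.5-fold. JAK1, the kinase on IFNAR2 and on the type II receptor, was at 152, 158 and 157 CPM in parental cells, 124, 124 and 127 in clone 15 and 137, 123 and 131 in clone 37. Every clone library lay below every parental library. The log2 fold change was -0.35 in clone 15 (SE 0.08, adjusted p 0.000471), and for clone 37 it was -0.29 (SE 0.06, adjusted p 0.000542). The 100 nearest tested genes on chromosome 1 shifted as well (medians of -0.34 and -0.18), and JAK1 was not called against them (-0.0054 and -0.12).

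IFNGR2, the signalling chain of the type II receptor, fell from 51.3 ± 5.75 CPM (SD, n = 3) in parental to 41.7 ± 3.46 in clone 15 and 35.8 ± 2.52 in clone 37. Its log2 fold changes were -0.34 (SE 0.10, adjusted p 0.00624) and -0.55 (SE 0.09, adjusted p 6.4e-05). The clone 15 call was lost without clone 15 replicate 1 (-0.26, adjusted p 0.0608). IFNGR1, the ligand-binding chain, went the other way in clone 37, to 50.9 ± 0.547 CPM from 42.9 ± 1.02 (log2 fold change 0.22, adjusted p 0.00849). IFNGR1 was not called in clone 15 (-0.11, 95% interval -0.29 to 0.08). IFNAR1 was called lower in clone 37 by a small margin (-0.21, adjusted p 0.0112), a call lost without clone 37 replicate 1 (-0.20) or replicate 2 (-0.17). TYK2, the kinase on IFNAR1, rose in clone 15 (0.41, SE 0.09, adjusted p 0.000277) and was not called in clone 37 (0.03, 95% interval -0.12 to 0.18). The difference between the clones in TYK2 was itself called (-0.38, SE 0.06). IFNAR2 was called in no comparison, and a gene on the same strand covers 44.2% of its exon bases and 82.6% of the 75-base words of its longest transcript occur in another gene, so its counts are uncertain.

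Among the transcription factors, IRF7, which drives late type I interferon expression and is itself interferon-stimulated, had the largest fitted change of the members in clone 37, and most of the reads over it came from the other strand. On the transcript strand it had 0.555, 0.935 and 0.612 CPM in parental cells, 2.68, 3.21 and 2.73 in clone 15 and 3.38, 2.71 and 2.67 in clone 37. The clones overlap each other and both lie above parental. The fitted log2 fold change was 1.97 in clone 15 (SE 0.31, adjusted p 9.25e-06), and for clone 37 it was 1.99 (SE 0.31, adjusted p 3.26e-05), with 0.03 between the clones (95% interval -0.41 to 0.47).

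IRF7 (ENSG00000185507) lies on chromosome 11, from 612553 to 615999, on the minus strand. The transcript strand held 8.41% of the stranded counts in parental cells, 20.5% in clone 15 and 25.5% in clone 37. The opposite strand was at 7.99 ± 2.61 CPM in parental cells, 11.1 ± 1.26 in clone 15 and 8.52 ± 1.61 in clone 37 (SD, n = 3). PHRF1 (chromosome 11, 576486 to 612222) lies on the opposite strand and ends 331 bases from the nearest IRF7 exon. With strands added together, the change in clone 37 was 0.35 and no longer called (adjusted p 0.0768), and in clone 15 it was 0.62 (adjusted p 0.0012). What part the opposite-strand reads have in this was not tested.

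IRF3, a constitutive factor activated by nucleic acid sensing, and STAT2 moved in opposite directions in the clones. IRF3 (ENSG00000126456, chromosome 19, 49659569 to 49665875, minus strand) was at 47.4, 40.1 and 46.8 CPM in parental cells, 56.9, 67.5 and 65.7 in clone 15 and 34.5, 34.7 and 34.0 in clone 37, so the 3 groups did not overlap. It rose in clone 15 (0.47, SE 0.09, adjusted p 9.3e-05), fell in clone 37 (-0.40, SE 0.08, adjusted p 0.000261), and the difference between the clones was -0.87 (SE 0.07, adjusted p 5.94e-11). The genes around IRF3 on chromosome 19 shifted in the same directions, with medians of 0.26 and -0.29, and against them IRF3 was called in neither clone (0.21, adjusted p 0.0554, and -0.13, adjusted p 0.172). Between the clones it was still called against its neighbours (-0.41, adjusted p 3.91e-05).

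STAT2 (ENSG00000170581, chromosome 12, 56341597 to 56360155, minus strand) was at 66.3, 52.2 and 68.6 CPM in parental cells, 83.3, 83.9 and 87.4 in clone 15 and 50.6, 52.7 and 53.9 in clone 37. Clone 15 lay above both other groups, while parental replicate 2 fell within the clone 37 range. The log2 fold change was 0.42 in clone 15 (SE 0.09, adjusted p 0.000241), and for clone 37 it was -0.27 (SE 0.08, adjusted p 0.0116), and -0.69 (SE 0.06, adjusted p 2.8e-10) between the clones. The clone 37 call was lost without clone 37 replicate 1 (-0.25, adjusted p 0.0598), and the clone 15 call against the genes around STAT2 (0.14, adjusted p 0.216).

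IRF9, the DNA-binding partner of STAT2, was low and scattered. IRF9 (ENSG00000213928, chromosome 14, 24161053 to 24166565, plus strand) had 2.31, 0.791 and 3.29 CPM in parental cells, 2.42, 2.60 and 3.00 in clone 15 and 1.46, 2.03 and 0.810 in clone 37. Parental libraries held both the lowest and the highest value, and neither clone was called against it (0.31, 95% interval -0.36 to 0.97, in clone 15 and -0.60, 95% interval -1.66 to 0.45, in clone 37). Clone 37 was called below clone 15 (-0.90, SE 0.28, adjusted p 0.007), a call lost without clone 37 replicate 3 (-0.61) and against neighbouring genes (-0.35). An overlapping gene on the same strand covers 48.4% of the exon bases of IRF9, and 100% of the 75-base words of its longest transcript occur in another gene, so its counts are uncertain. IRF1, an activator induced by interferon, rose in clone 15 (0.46, SE 0.14, adjusted p 0.0098), and its clone 37 value was 0.23 (95% interval -0.07 to 0.52). The difference between the clones in IRF1 was not called (-0.23, adjusted p 0.111), and 22% of its exon bases face genes on the opposite strand. IRF2, which represses at IRF1 sites, was not called in either clone.

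The IFIT genes, a family of RNA-binding antiviral proteins and their partners, lie side by side on chromosome 10 and did not move together. IFIT1 (ENSG00000185745, chromosome 10, 89392546 to 89406486, plus strand) was at 6.85, 6.83 and 6.89 CPM in parental cells, 6.35, 5.89 and 6.86 in clone 15 and 3.38, 2.81 and 5.26 in clone 37. All clone 37 libraries lay below all others, though replicate 3 stood well above replicates 1 and 2. It fell in clone 37 (-0.85, SE 0.20, adjusted p 0.00197) and was not called in clone 15 (-0.14, 95% interval -0.47 to 0.19). The difference between the clones was called (-0.71, SE 0.19, adjusted p 0.0021).

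IFIT5, whose start is 8100 bases past the end of IFIT1 on the same strand, rose instead. IFIT5 (ENSG00000152778, chromosome 10, 89414586 to 89421001, plus strand) had 25.8, 25.2 and 21.7 CPM in parental cells, 29.3, 24.4 and 28.1 in clone 15 and 37.9, 38.1 and 42.7 in clone 37. Clone 37 stood above both other groups, which overlapped. The log2 fold change in clone 37 was 0.69 (SE 0.09, adjusted p 5.39e-06) against parental and 0.54 (SE 0.09, adjusted p 4.42e-06) against clone 15. In clone 15 it was not called (0.14, 95% interval -0.08 to 0.37). Both promoter windows printed above hold 2 ISRE cores.

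IFIT2 (ENSG00000119922, chromosome 10, 89283694 to 89309276, plus strand) was near the limit of detection, with 3, 3 and 5 counts in parental cells, 33, 19 and 13 in clone 15 and 3, 1 and 2 in clone 37. As levels these are 0.278, 0.216 and 0.383 CPM in parental cells, 0.866, 0.772 and 0.697 in clone 15 and 0.274, 0.0968 and 0.162 in clone 37. Clone 15 was called above parental (1.39, SE 0.47, adjusted p 0.0161) and clone 37 below clone 15 (-2.10, SE 0.54, adjusted p 0.00149). The clone 15 call was lost with DESeq2 (adjusted p 0.0787) and without parental replicate 1 or 2 (1.33 and 1.22). IFIT3 had 4, 4 and 8 counts in parental cells, 21, 18 and 21 in clone 15 and 7, 2 and 9 in clone 37, and the clones did not differ by the test (-0.51, 95% interval -1.45 to 0.44).

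**Figure D3:**
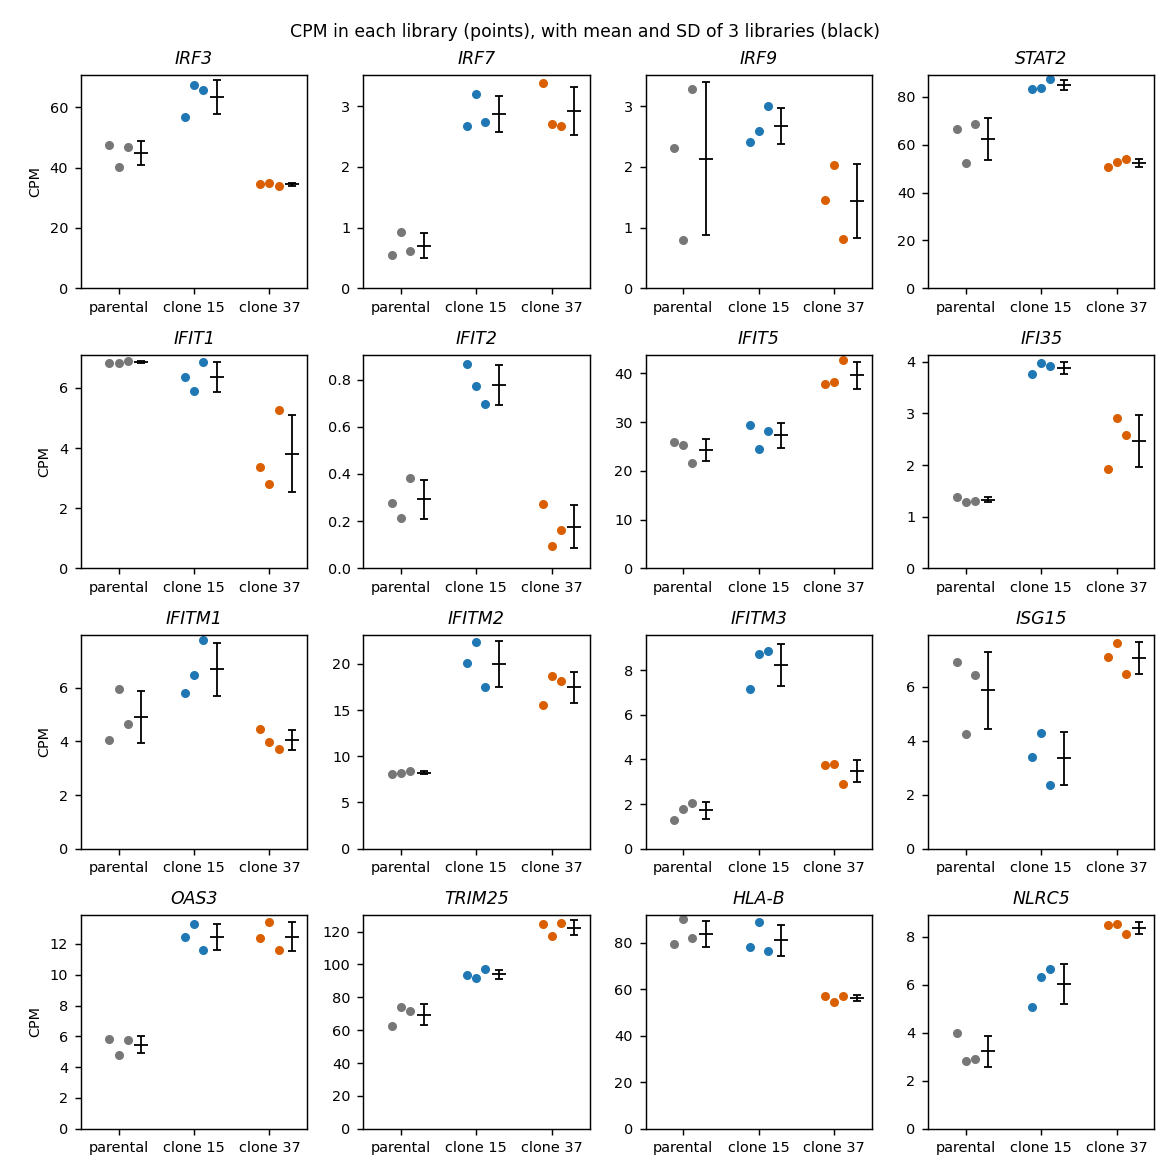
CPM of each library (points) for the 16 members called with at least 1.5-fold change in a comparison, with mean and SD of 3 libraries in black; each axis starts at 0. OAS3 and IFITM2 are higher in both clones without overlap with parental, IFIT1 and HLA-B are lower in clone 37, and IRF9 scatters within parental.

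Of the 6 membrane-bound and small effectors tested, IFITM2, IFITM3 and IFI35 were called higher in both clones, and none was called lower against parental. In either clone 50% were thus called higher, beside 26.7% of all genes in clone 37 and 25.1% in clone 15. For lower calls it was 0%, beside 27.3% and 26.2%. Of all genes tested in both comparisons, 11.8% were called higher in both clones. IFITM3 (ENSG00000142089, chromosome 11, 319669 to 327537, minus strand), which blocks viral fusion in endosomes, was at 1.30, 1.80 and 2.07 CPM in parental cells, 7.14, 8.73 and 8.85 in clone 15 and 3.74, 3.77 and 2.91 in clone 37. The 3 groups did not overlap, with clone 37 in the middle. The log2 fold change was 2.20 (SE 0.21, adjusted p 4.35e-09), or 4.59-fold, in clone 15 and 0.96 (SE 0.25, adjusted p 0.00359), or 1.95-fold, in clone 37. Clone 37, the clone with the higher integrand level, was 2.35-fold below clone 15 (adjusted p 3.56e-07). A gene on the opposite strand faces 21.3% of the exon bases of IFITM3. Its transcript strand held 56.9% of the stranded counts in parental cells, 81.8% in clone 15 and 71.2% in clone 37. Of the 75-base words of its longest transcript 10.8% occur in another gene, and of the 100-base words 5.92%, and clone 15 was read at 100 bp. The part of these in the differences was not tested.

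IFITM2 (ENSG00000185201, chromosome 11, 307631 to 315272, plus strand), a close relative of IFITM3, was at 8.05, 8.20 and 8.42 CPM in parental cells, 20.1, 22.4 and 17.5 in clone 15 and 15.5, 18.7 and 18.1 in clone 37. Both clones lay above parental and overlapped each other. The log2 fold changes were 1.25 (SE 0.13, adjusted p 1.58e-08) and 1.06 (SE 0.12, adjusted p 7.9e-07), and the clones differed by -0.19 (95% interval -0.41 to 0.02). IFITM1 (ENSG00000185885, chromosome 11, 313506 to 315272, plus strand), which acts at the plasma membrane, was at 4.07, 5.97 and 4.67 CPM in parental cells, 5.80, 6.50 and 7.77 in clone 15 and 4.47, 3.97 and 3.72 in clone 37. It was called against parental in neither clone (0.39, adjusted p 0.085, and -0.31, adjusted p 0.197) and was lower in clone 37 than in clone 15 (-0.70, SE 0.17, adjusted p 0.000872). In the annotation used here, 32.5% of IFITM1 exon bases lie in IFITM2 and 22.8% of those of IFITM2 in IFITM1, so reads there cannot be given to either gene.

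IFI35 (ENSG00000068079, chromosome 17, 43006725 to 43014456, plus strand), a cytoplasmic protein that modulates innate signalling, was at 1.39, 1.29 and 1.30 CPM in parental cells, 3.75, 3.98 and 3.91 in clone 15 and 1.92, 2.90 and 2.59 in clone 37. Again the groups did not overlap and clone 15 was highest. It rose by 1.51 in clone 15 (SE 0.25, adjusted p 1.42e-05) and by 0.87 in clone 37 (SE 0.28, adjusted p 0.0132), with -0.64 (SE 0.21, adjusted p 0.00932) between the clones. The clone 37 call was lost with DESeq2 (0.86, adjusted p 0.06) and without clone 37 replicate 2 or 3 (0.75 and 0.80), and that between the clones without clone 37 replicate 1 (-0.49) and with trends in GC content and length removed (-0.44). IFI6 and IFI27, small hydrophobic proteins known as strongly interferon-induced, were called nowhere, at 6.94 ± 0.983 and 2.26 ± 0.786 CPM in parental cells, 9.05 ± 1.07 and 2.29 ± 0.292 in clone 15 and 7.35 ± 0.753 and 2.42 ± 0.551 in clone 37 (SD, n = 3).

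Of the 9 effectors that act on nucleic acids, only OAS3, SAMHD1 and ISG20 were high enough to test. OAS3 (ENSG00000111331, chromosome 12, 112938352 to 112973249, plus strand), which makes the oligoadenylates that activate RNase L, was at 5.83, 4.82 and 5.74 CPM in parental cells, 12.4, 13.3 and 11.6 in clone 15 and 12.4, 13.5 and 11.6 in clone 37. All 6 clone libraries lay above the parental ones, and the clones overlapped. The increase was 2.24-fold in clone 15 (log2 1.16, SE 0.15, adjusted p 3.55e-07) and 2.25-fold in clone 37 (log2 1.17, SE 0.14, adjusted p 1.85e-06). The difference between the clones was 0.00 with a 95% interval of -0.23 to 0.23. OAS1 and OAS2, which lie beside it, had 0 or 1 count per library.

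SAMHD1, a deoxynucleotide hydrolase, was at 74.2 ± 7.12 CPM in parental cells, 91.8 ± 7.30 in clone 15 and 94.8 ± 1.32 in clone 37 (SD, n = 3). It was called higher in both clones (0.27, adjusted p 0.0129, and 0.32, adjusted p 0.000699) but in neither against the genes around it (-0.046 and 0.043), and the clone 15 call was lost without parental replicate 1 (0.17) or clone 15 replicate 3 (0.23). ISG20, an exonuclease, was called in no comparison (0.08 in clone 15 and 0.30 in clone 37).

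ISG15, a ubiquitin-like protein, is joined to targets after interferon treatment, and USP18 removes it. ISG15 (ENSG00000187608, chromosome 1, 1001138 to 1014540, plus strand) had 6.94, 4.24 and 6.43 CPM in parental cells, 3.39, 4.30 and 2.36 in clone 15 and 7.12, 7.64 and 6.48 in clone 37. Clone 15 was low except for replicate 2, which reached the lowest parental library, and clone 37 overlapped parental. ISG15 fell in clone 15 (-0.81, SE 0.22, adjusted p 0.00312) and was not called in clone 37 (0.26, 95% interval -0.12 to 0.63). Clone 37 was 2.09-fold above clone 15 (log2 1.06, SE 0.19, adjusted p 1.83e-05). The genes around ISG15 on chromosome 1 had a median of 0.43 in clone 15, and against them its fall was -1.23 (adjusted p 6.81e-05).

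TRIM25, a ubiquitin and ISG15 ligase that activates RIG-I, was called higher in both clones and higher again in clone 37 than in clone 15, as NLRC5 was. TRIM25 (ENSG00000121060, chromosome 17, 56836387 to 56914080, minus strand) had 62.4, 74.1 and 71.9 CPM in parental cells, 93.3, 91.6 and 97.1 in clone 15 and 125, 117 and 125 in clone 37, with no overlap among the 3 groups. The log2 fold changes were 0.40 in clone 15 (SE 0.09, adjusted p 0.000367), 0.79 in clone 37 (SE 0.07, adjusted p 4.68e-08) and 0.39 (SE 0.06, adjusted p 1.74e-06) between them. USP18 was called in no comparison (0.14 in clone 15 and 0.01 in clone 37), and USP41 shares 18.3% of its 75-base words.

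In antigen presentation, the activator NLRC5 rose in both clones. Of the 8 genes of this group, NLRC5 included, clone 37 had 3 called above parental and 1 below it (37.5% and 12.5%, beside 26.7% and 27.3% of all genes). In clone 15, 3 were above and none below (37.5% and 0%, beside 25.1% and 26.2%). NLRC5 (ENSG00000140853, chromosome 16, 56989485 to 57083531, plus strand) was at 3.98, 2.81 and 2.91 CPM in parental cells, 5.07, 6.33 and 6.65 in clone 15 and 8.49, 8.52 and 8.10 in clone 37, and the groups did not overlap. The log2 fold change was 0.87 in clone 15 (SE 0.20, adjusted p 0.000812) and 1.36 (SE 0.18, adjusted p 4.66e-06), or 2.57-fold, in clone 37. The difference between the clones was 0.50 (SE 0.15, adjusted p 0.00473), beside a median of 0.57 for the genes around NLRC5 on chromosome 16. This difference was not called against those genes (-0.072) or after thinning to the smallest library (0.30, adjusted p 0.0986).

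HLA-B (ENSG00000234745, chromosome 6, 31269491 to 31357188, minus strand), a classical class I heavy chain, had 79.3, 90.1 and 82.0 CPM in parental cells, 77.9, 88.7 and 76.4 in clone 15 and 56.9, 54.5 and 56.9 in clone 37. Clone 37 lay apart below both other groups, which overlapped. It fell in clone 37 (-0.61, SE 0.07, adjusted p 9.72e-07) and was not called in clone 15 (-0.08, 95% interval -0.26 to 0.10), with -0.52 (SE 0.07, adjusted p 1.01e-07) between the clones. An antisense gene faces 17.8% of the exon bases of HLA-B, and the counts used are those of the HLA-B strand. HLA-C, the other classical chain among the members, was at 121 ± 6.63 CPM in parental cells, 147 ± 13.6 in clone 15 and 119 ± 2.48 in clone 37. It was called higher in clone 15 (0.25, SE 0.08, adjusted p 0.017) and not called in clone 37 (-0.05, 95% interval -0.17 to 0.08). The clone 15 call of HLA-C was lost without parental replicate 1 (0.23) or replicate 3 (0.17), after removal of GC and length trends (0.064) and when strands were added together (0.19), and its sign turned against neighbouring genes (-0.043). HLA-E, a ligand of inhibitory receptors on natural killer cells, was called nowhere (-0.04 in clone 15 and 0.09 in clone 37).

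B2M, the light chain shared by class I molecules, was at 99.4 ± 3.70 CPM in parental cells, 116 ± 4.29 in clone 15 and 104 ± 4.13 in clone 37. The clone 15 difference (0.19, adjusted p 0.0427) was small and was lost without parental replicate 1 (0.17) or 3 (0.14) or clone 15 replicate 1 (0.19). The peptide transporter genes TAP1 and TAP2 were higher in clone 37, at 24.0 ± 2.13 and 40.0 ± 3.85 CPM from 19.1 ± 0.932 and 32.9 ± 1.87 in parental. The changes on the log2 scale were 0.30 (SE 0.09, adjusted p 0.0124) and 0.26 (SE 0.09, adjusted p 0.0166). Neither was called against neighbouring genes (0.17 and 0.13) or with DESeq2, and TAP1 was lost without clone 37 replicate 1 (0.23) and TAP2 without clone 37 replicate 3 (0.15), parental replicate 1 (0.21) or parental replicate 3 (0.21). In clone 15 they were not called (0.07 and -0.19). A gene on the same strand covers 32.3% of the exon bases of TAP2, so its counts are uncertain. TAPBP, which bridges TAP to the heavy chain, was called in no comparison.

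Because changes can be shared by a stretch of chromosome, each called member was also compared with the typical shift of its 100 nearest tested genes. Of the 19 calls in clone 37, 6 were lost this way (IRF3, JAK1, IFNGR1, SAMHD1, TAP1 and TAP2). Of the 18 calls in clone 15, also 6 were lost (IRF3, STAT2, JAK1, SAMHD1, HLA-C and B2M). Of the 20 between the clones, IRF9 and NLRC5 were lost. The share of all called genes that lost their call this way is not given here, so these counts have no background beside them. Other members were called only against their neighbours: TYK2 (-0.29, adjusted p 0.00301), IFITM1 (-0.59, adjusted p 0.0239) and HLA-C (-0.29, adjusted p 0.00168) lower in clone 37, and HLA-B (-0.38, adjusted p 0.000809), TAP2 (-0.49, adjusted p 0.000254) and TAPBP (-0.36, adjusted p 0.00513) lower in clone 15. Between the clones these were IRF1, lower in clone 37 (-0.33, adjusted p 0.0267), and TAPBP, higher (0.31, adjusted p 0.00246). IRF7, IFITM2, IFITM3, IFI35, OAS3, TRIM25 and NLRC5 remained called in both clones against parental.

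**Figure D4:**
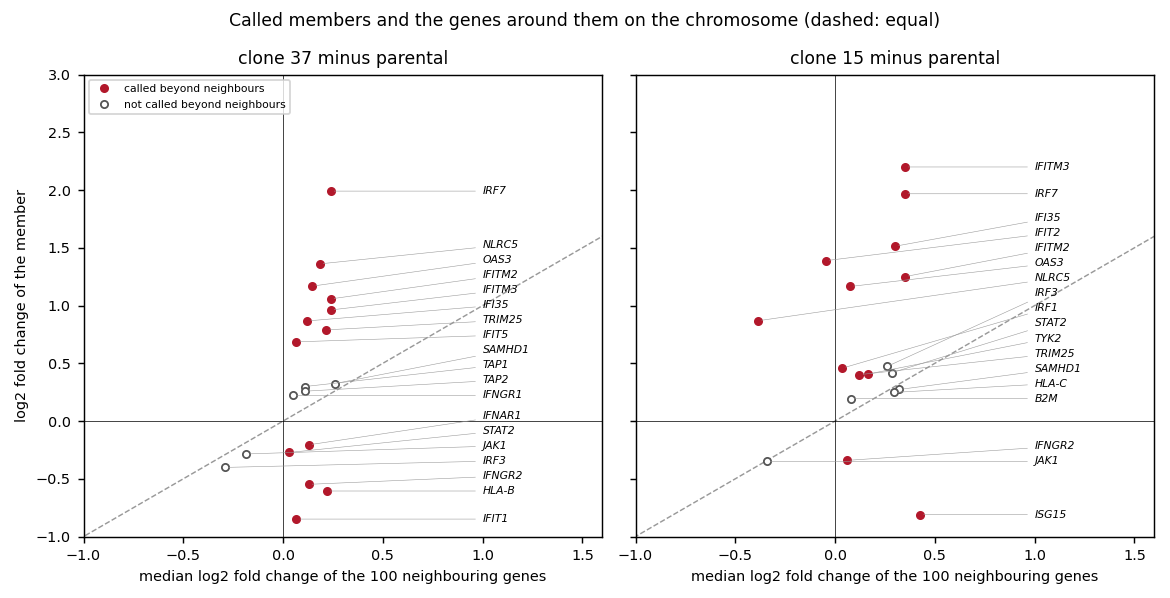
Log2 fold change of each called member (vertical axis) against the median of its 100 nearest tested genes (horizontal axis), for clone 37 and clone 15 against parental; the dashed line marks equal values and open points lost their call against the neighbours. IRF3 and JAK1 lie near the line in both panels, while IFITM3 and IRF7 lie far above it.

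Other genes of the pathway were drawn from lists made for this purpose. Of 50 further interferon-stimulated genes, 30 were tested in clone 37, with 14 higher and 7 lower (46.7% and 23.3%, beside 26.7% and 27.3% of all genes) and a median log2 fold change of 0.15 against 0.02 over all genes, and 31 in clone 15, with 13 higher and 5 lower (41.9% and 16.1%, beside 25.1% and 26.2%) and a median of 0.10 against 0.02. LGALS3BP, a secreted glycoprotein, rose from 28.0 ± 1.37 CPM in parental cells to 108 ± 5.59 in clone 15 (1.92, adjusted p 1.56e-15) and 89.3 ± 6.04 in clone 37 (1.65, adjusted p 6.15e-12). SAMD9, an antiviral factor, rose from 2.90 ± 0.368 CPM in parental cells to 7.77 ± 2.12 in clone 15 (1.39, adjusted p 1.27e-05) and 13.4 ± 2.09 in clone 37 (2.17, adjusted p 1.33e-08), and SP100, a nuclear body protein, rose in clone 15 (1.71, adjusted p 0.00323). SP100 had 3, 4 and 4 counts in parental cells and 1, 0 and 2 in clone 37, where it was too low to test. In the other direction, IFI44L (-1.34, adjusted p 0.0113) and EPSTI1 (-1.11, adjusted p 0.00478) fell in clone 37, and neither was called in clone 15 (-0.22 and -0.11). The DNA sensor IFI16 fell in clone 15 (-1.83, adjusted p 0.00104), with -1.01 in clone 37 (adjusted p 0.0902). The helicase DDX60 was called in opposite directions, lower in clone 15 (-1.10, adjusted p 8.06e-05) and higher in clone 37 (0.44, adjusted p 0.0391), the latter lost against neighbouring genes (adjusted p 0.795).

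Of 18 further signalling genes, 15 were tested in each clone, with 5 higher and 6 lower in clone 37 and 4 and 4 in clone 15. Those called are 73.3% and 53.3% of the tested, beside 54% and 51.4% of all genes. The phosphatase PTPN6 was at 1.81 ± 0.522 CPM in parental and moved both ways, to 6.28 ± 0.664 in clone 15 (1.77, adjusted p 3.55e-07) and 0.794 ± 0.578 in clone 37 (-1.22, adjusted p 0.0192). In clone 37 PTPN6 had 4, 15 and 7 counts, and its highest library (1.45 CPM) lay above the lowest parental one (1.22 CPM). Its transcript strand held 74.4% of the stranded counts in parental, 91.7% in clone 15 and 50% in clone 37. With strands unseparated its mean was 2.54 CPM in parental, 7.12 in clone 15 and 1.65 in clone 37. IFNLR1, the type III interferon receptor chain, rose in both clones (0.46, adjusted p 0.00565, in clone 15 and 0.58, adjusted p 0.00145, in clone 37). IRF8 rose in clone 37 (0.95, adjusted p 4.44e-05) and was not called in clone 15 (-0.17). The corepressor IRF2BP2 fell in both, with -0.59 in clone 15 (adjusted p 1.28e-06) and -0.36 in clone 37 (adjusted p 6.37e-05). IFNLR1 in both clones and IRF8 in clone 37 were not called against their neighbouring genes.

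Of 26 further antigen presentation genes, 18 were tested in clone 37, with 2 higher and 7 lower (11.1% and 38.9%, beside 26.7% and 27.3% of all genes), and 20 in clone 15, with 9 higher and 6 lower (45% and 30%, beside 25.1% and 26.2%). HLA-DPA1, a class II chain, fell in both clones, from 11.7 ± 0.571 CPM to 4.08 ± 0.830 in clone 15 (-1.57, adjusted p 2.92e-08) and 3.79 ± 0.764 in clone 37 (-1.64, adjusted p 2.06e-07). MICB, a stress ligand, rose in clone 37 (0.83, adjusted p 1.04e-05) and in clone 15 (0.62, adjusted p 0.000369), where it was not called against its neighbouring genes (adjusted p 0.0648). The chaperone CANX was called higher in clone 37 (0.26, adjusted p 0.0119) and lower in clone 15 (-0.25, adjusted p 0.0484). Against its neighbouring genes CANX was not called in clone 37 and its sign turned (-0.17, adjusted p 0.124). In clone 15, TAPBPL (1.79, adjusted p 0.00389) and HLA-DMA (1.00, adjusted p 0.00142) rose and RFXAP, a class II regulator, fell (-0.65, adjusted p 2.37e-05). TAPBPL had 2, 4 and 4 counts in parental cells and 1, 0 and 0 in clone 37, where it was too low to test. In clone 37 HLA-DMA was not called (0.32) and RFXAP was called lower (-0.24, adjusted p 0.0348), but not against its neighbouring genes (adjusted p 0.562). Only 5.18% of the stranded counts of TAPBPL in parental cells and 10.1% in clone 15 were on its transcript strand, and with strands unseparated its mean was 1.81 CPM in parental cells and 3.71 in clone 15.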

How the data were processed

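The authors deposited raw counts per gene for each of the 9 libraries, in the layout of STAR's gene counts (unstranded, and a column for each strand). Per the labels' protocols, RNA was depleted of ribosomal RNA and made into directional paired-end libraries. Per the submitters' processing notes, FastQC 0.11.9, STAR 2.7.10a and hg38 were used; the annotation release is not given in the sources used here. Column 4 was used here, since it held 92.6% to 94.0% of stranded counts. The 4 summary entries (no feature, ambiguous, multimapping, unmapped; 40.3% to 49.1% of read pairs) stayed out of library sizes. Symbols came from a table of gene names (60370 of 60683 matched), positions and exons from GENCODE 29 on GRCh38, promoters from RefSeq.

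Genes were filtered with filterByExpr, scaled by TMM and tested with edgeR 4.0.16 (robust quasi-likelihood, R 4.3.3) on the 6 libraries of each of the 3 comparisons, with Benjamini-Hochberg adjustment over all genes tested. Intervals are 95%, from the standard error and the t distribution at the fit's degrees of freedom. CPM values are counts scaled to the total gene count, without the TMM factor. DESeq2 1.42.0 was an alternative. The members and all lists were chosen with earlier results of these data known. Members called with at least 1.5-fold change in a comparison were given in every library, and of each other list the 2 called genes with the largest change in each direction. A few genes of those lists are not reported here. Remaining steps used pandas 2.3.3, numpy 2.4.6 and scipy 1.17.1 in Python 3.11.15, with matplotlib 3.10.9 for figures. The reporter transcripts were not analysed here.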

Additional observations from a re-analysis of the deposited data

Results flagged for a closer look

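IRF3 and STAT2 were called in opposite directions against parental in the 2 clones, lower in clone 37 and higher in clone 15, and the difference itself was called between the clones by edgeR (log2 fold change of clone 37 against clone 15 of -0.87 for IRF3 and -0.69 for STAT2). Both differences were in the same direction in all 3 clone 37 libraries, none of which overlapped a clone 15 library. Against neighbouring genes IRF3 was called in neither clone (adjusted p 0.0554 in clone 15 and 0.172 in clone 37) and STAT2 lost its clone 15 call (adjusted p 0.216), and the STAT2 call in clone 37 was lost without clone 37 replicate 1 (adjusted p 0.0598). The differences between the clones were still called against neighbouring genes (-0.41 for IRF3 and -0.45 for STAT2). Every clone 15 library was read at 100 bp and at greater depth, and the part of read length in these differences cannot be told apart from the clone. After thinning to the smallest library, no member tested changed its call against parental in either clone, and 2 members lost their call between the clones.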

How the results depend on the processing

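Besides leaving out each of the 9 libraries in turn, 10 settings were run: unstranded counts, the DESeq2 Wald test, RLE size factors, a minimum of 1 CPM in 3 libraries, no minimum, all 9 libraries in 1 fit, thinning to the smallest library, a replicate block, removal of GC and length trends, and a test against the 100 neighbouring genes. Of the called members, 9 of 19 in clone 37, 10 of 18 in clone 15 and 14 of 20 between the clones kept their call in all of those in which they were tested. The same share over all called genes is not given here, so whether the members' calls were more or less stable cannot be said. The number called lower in clone 15 went from 3 to 5 with unstranded counts, to 5 with GC and length trends removed and to 5 against neighbouring genes; the cause was not tested. Among members called with or without this setting, 4 signs turned against neighbouring genes: TYK2 in clone 37 (-0.29, adjusted p 0.00301), SAMHD1 (-0.046) and HLA-C (-0.043) in clone 15, and NLRC5 between the clones (-0.072). Same-numbered libraries did not deviate together in every pair (correlations over 7094 genes of -0.12, -0.32 and -0.15 for clone 37 and parental, -0.05, -0.11 and -0.05 for clone 15 and parental, and -0.22, 0.11 and 0.14 for the clones), so the numbers were not taken as pairs. With the replicate block, B2M in clone 15 lost its call (0.20, adjusted p 0.06) and TAPBP gained one between the clones (0.18, adjusted p 0.0435), and no other member changed its call. At these depths 7 genes stayed under the count minimum in every comparison, and IFIT2 and IFIT3 in at least 1.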
